A study of Mus musculus with 24 samples.

Results

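The microRNAs (miRNAs) of the imprinted Dlk1-Dio3 region were followed through fresh, stored and RNase-treated mouse liver RNA. Members were chosen by name: every miRNA on the array with 1 of 41 numbers assigned to this cluster, whatever its letter or arm, and without miR-494. The rule gave 88 of the 1881 mouse miRNAs on the array, from 45 hairpins. In the RefSeq annotation 87 of them lie between Dlk1 and Dio3 on chromosome 12, and mmu-miR-496b lies on chromosome 19. By literature lists of host transcript regions, 16 of the 87 fall in the Rtl1 antisense region and 4 in Rian (miR-341 and miR-370). The other 67 were counted as Mirg without a check of the host. Among them are the arms of miR-299b, which are annotated on the minus strand.

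Signals were measured on 24 one-colour arrays, with liver RNA of 3 male mice (numbers 7, 10 and 9) in each of 8 groups. Strain and age of these mice are not given in the sources used here. Total RNA including small RNAs came from tissue kept for 0 h or for 96 h at room temperature, and each was isolated with or without DNase digestion. A further piece of unstored liver gave DNase-digested RNA depleted of small RNAs, which was hybridized untreated or after incubation at 0 U, 0.026 U or 0.67 U RNase and a second isolation. Fresh below means 0 h RNA including small RNAs, and depleted means RNA in which small RNAs were strongly reduced. The paper states that such RNA is not entirely free of them. The RNA integrity number, a scale on which high values mean intact RNA, was 8.8 to 9.0 in fresh RNA, 2.3 to 2.5 after storage, 9.0 to 9.4 in depleted RNA without RNase, 6.0 to 7.0 at 0.026 U and 2.4 to 2.9 at 0.67 U. For mouse 9 the labels of the 0.026 U and 0.67 U arrays contradict each other, and the arrays were grouped by their descriptions. The 8 arrays of a mouse lay on 1 slide with 1 scan, and the effects of animal, slide and scan cannot be told apart.

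The Dlk1-Dio3 domain is imprinted. Its protein-coding genes, among them Dlk1 and Rtl1, are expressed from the paternal chromosome, and its long non-coding RNAs, which carry the miRNA hairpins, from the maternal one. These miRNAs are known from embryo, placenta and brain, and adult liver is known for low expression of the domain. Each hairpin can release a miRNA from its 5p or its 3p arm, and bases 2 to 8 of the mature strand, the seed, pair with target mRNAs.

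RefSeq (build GRCm38.p6) held the mature sequence of 84 of the 88 members. The sequences of the members on which the results turn are printed 5′ to 3′ with the seed in capitals. The following were detected in degraded or in depleted RNA, and their seeds differ from each other.

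mmu-miR-370-3p: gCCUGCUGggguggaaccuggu
mmu-miR-134-5p: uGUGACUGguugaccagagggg
mmu-miR-433-5p: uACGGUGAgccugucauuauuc
mmu-miR-341-3p: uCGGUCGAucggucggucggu
mmu-miR-431-5p: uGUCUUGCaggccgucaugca
mmu-miR-485-3p: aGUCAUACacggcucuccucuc
mmu-miR-376b-3p: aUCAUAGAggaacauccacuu

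The next 5 sequences are shown because each shares a long run of bases with another member that did not give the same detection pattern. mmu-miR-758-5p holds the 13 bases UGGUUGACCAGAG of mmu-miR-134-5p, mmu-miR-300-3p holds the 16 bases CAAGGGCAAGCUCUCU of mmu-miR-381-3p, and all 18 bases of mmu-miR-299b-3p lie in mmu-miR-299a-3p.

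mmu-miR-758-5p: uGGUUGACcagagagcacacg
mmu-miR-300-3p: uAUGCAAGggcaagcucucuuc
mmu-miR-381-3p: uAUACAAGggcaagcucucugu
mmu-miR-299b-3p: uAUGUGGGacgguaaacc
mmu-miR-299a-3p: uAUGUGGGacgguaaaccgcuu

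Over the 84 members with a sequence, 5 seeds were shared, each by a pair of members. The pairs were miR-370-5p with miR-1193-3p, miR-379-3p with miR-411-3p, miR-379-5p with miR-1193-5p, miR-376b-5p with miR-376c-5p, and miR-299a-3p with miR-299b-3p. Of these 10 miRNAs, mmu-miR-299b-3p was detected, on 1 array, and the other 9 on none.

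Most members were detected on no array. A miRNA counts as detected where the scanner software flagged its total signal. By this flag 14 of the 88 members (15.9%) were detected on at least 1 of the 24 arrays and 74 on none. Over all miRNAs of the array the share was 879 of 1881 (46.7%), and among the other miRNAs with numbers in the same span (miR-127 to miR-1193) it was 250 of 569 (43.9%). These shares are descriptions, with no test.

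Degraded RNA gave more of the members than intact RNA. Fresh RNA with DNase gave 1, 2 and 2 members in mice 7, 10 and 9, and fresh RNA without DNase 2, 2 and 1. After 96 h of storage the counts were 6, 5 and 10 with DNase and 7, 7 and 7 without. The stored arrays all lay above the fresh ones.

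In depleted RNA mice 7, 10 and 9 gave 2, 2 and 0 members untreated and 1 member each at 0 U. RNase at 0.026 U gave 3, 2 and 4 members, and 0.67 U gave 4 in each mouse. All 3 arrays at each RNase dose lay above the 0 U arrays of the same mice. The share of all array miRNAs that was detected moved the same way, from 15.9% ± 0.643 (SD, n = 3) in fresh to 34.2% ± 3.33 (SD, n = 3) in stored DNase-treated RNA, and from 11.4% ± 1.06 (SD, n = 3) at 0 U to 18.9% ± 2.31 (SD, n = 3) at 0.67 U.

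**Figure D1:**
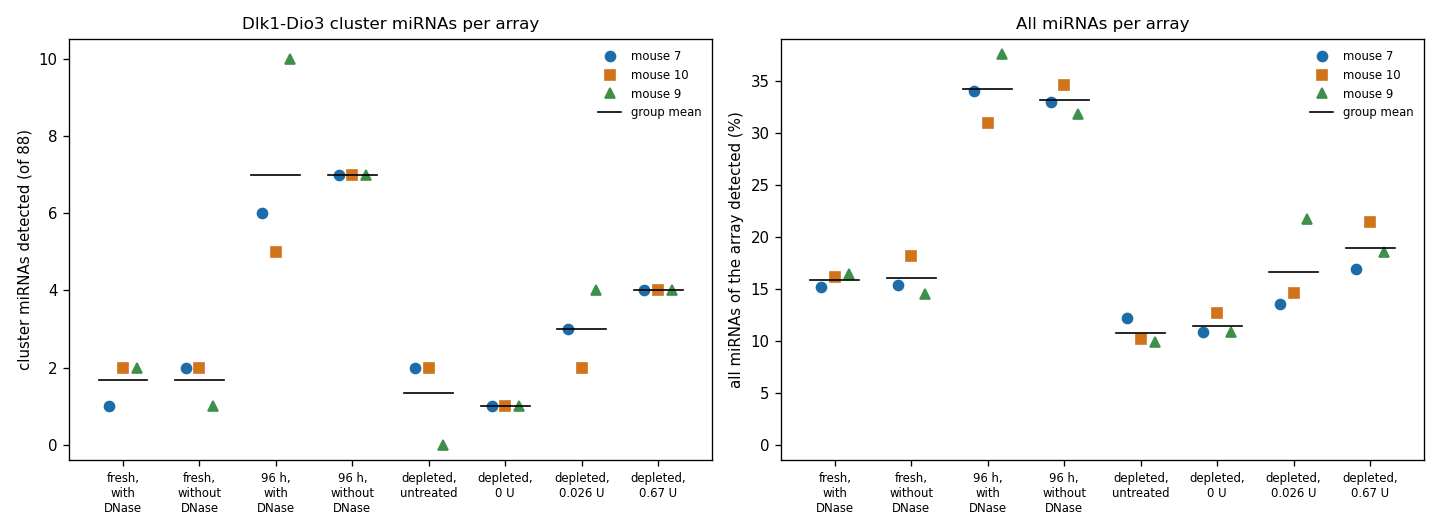
Number of the 88 cluster miRNAs detected on each array (left) and percent of all 1881 miRNAs detected (right), for the 8 groups, with a symbol for each mouse and a line at the group mean. Stored liver gave 5 to 10 cluster miRNAs per array against 1 or 2 in fresh liver.

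The 14 detected members came from 14 different hairpins, and no hairpin gave both of its arms. Of the 43 members from a 5p arm 5 were detected, and of the 44 from a 3p arm 9. By assigned host region the detected members were 3 of 16 in the Rtl1 antisense region, 2 of 4 in Rian and 9 of 67 in Mirg. Both Rian members were 3p arms, mmu-miR-341-3p and mmu-miR-370-3p, and their 5p arms were detected on no array.

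The detected members were rich in G and C. Their median GC content was 57.1% (n = 13 with a sequence) against 47.4% for the members never detected (n = 71). Over all array miRNAs the medians were 57.1% (n = 739) and 50% (n = 869). Other miRNAs of the same region, outside the rule, were detected more widely: 13 of 22 (59.1%), with 3 of them on every array. No test was made of these differences.

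**Figure D2:**
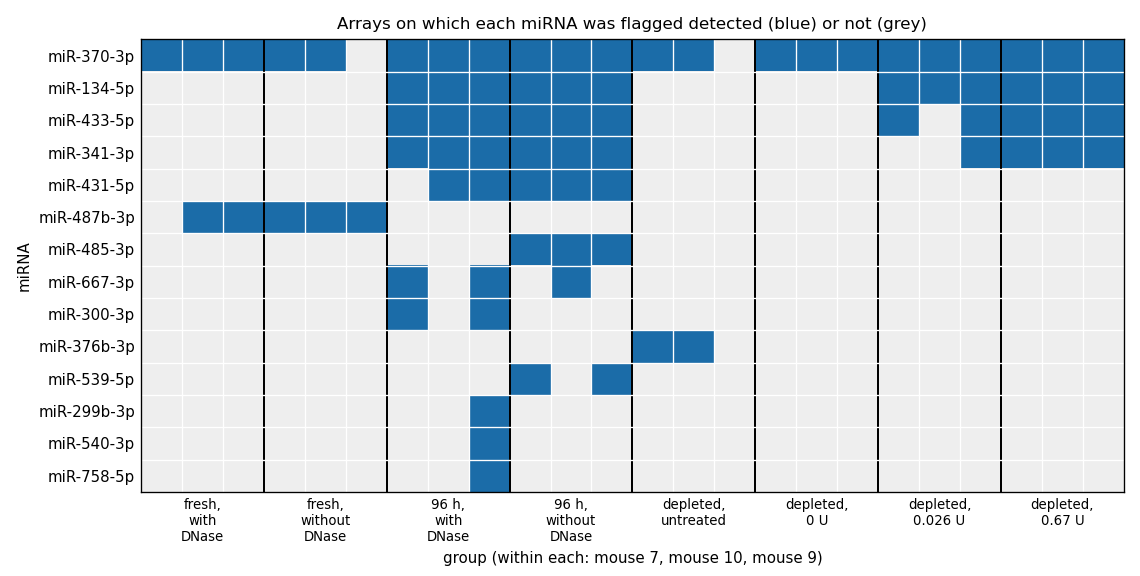
Detection of the 14 members (rows) on the 24 arrays (columns, in the order mouse 7, 10, 9 within each of the 8 groups), blue where detected and grey where not. Fresh RNA gave miR-370-3p and miR-487b-3p alone, miR-370-3p was found on 22 arrays, and miR-134-5p, miR-433-5p and miR-341-3p were found in both stored and RNase-treated RNA.

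The tissue label was checked against markers. All 3 hepatocyte miRNAs listed (miR-122-5p, miR-192-5p and miR-194-5p) were detected on every array, with a summed signal of 7655 to 13355 intensity units in fresh DNase-treated RNA and 3546 to 6741 in stored. The 2 erythroid miRNAs summed to 222 to 423 units fresh and 150 to 205 stored, where miR-144-3p was undetected. The 5 endothelial and stromal ones summed to 310 to 568 and 69.8 to 152. Of 4 immune miRNAs 2 were detected on all 3 arrays in both groups, and the sums were 41.4 to 109 and 52.8 to 76.4 units. In fresh RNA miR-155-5p was undetected, and in stored RNA miR-150-5p. The 3 neural miRNAs (miR-124-3p, miR-9-5p and miR-128-3p) were at 0 in every group. None of the 3 muscle miRNAs was detected in fresh RNA, and in stored RNA their sum was 10.1 to 22.7 units with DNase, with miR-1a-3p undetected. The part of the cell mix in the results below was not tested, and in bulk RNA fewer cells and less RNA per cell cannot be told apart.

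Only miRNAs seen on 5 or more arrays were tested, which left 631 miRNAs and 6 of the 88 members (6.82%). Of these 6, mmu-miR-134-5p, miR-433-5p, miR-341-3p and miR-431-5p were detected on no fresh array, so they passed this filter through degraded RNA. mmu-miR-487b-3p was detected on 5 fresh arrays and nowhere else, so it passed through the groups where it is high. Counts and medians over the 6 are therefore descriptions and no evidence of a direction, and each call of these 5 members was made on a miRNA that the filter had selected in this way. Levels are given as signal in intensity units and, for tests, as normalized levels on a log2-like scale called glog2. A difference of 1 on that scale is 2-fold for bright miRNAs. A member was called higher or lower at a limma adjusted p under 0.05 with a change of at least 1. Where a group had no detected array, the fold is a lower bound: the brighter group's mean over the lowest level that was detected on the dim group's arrays. This bound holds for the variance stabilizing normalization used in the tests, and other scalings gave smaller changes for some members.

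**Figure D3:**
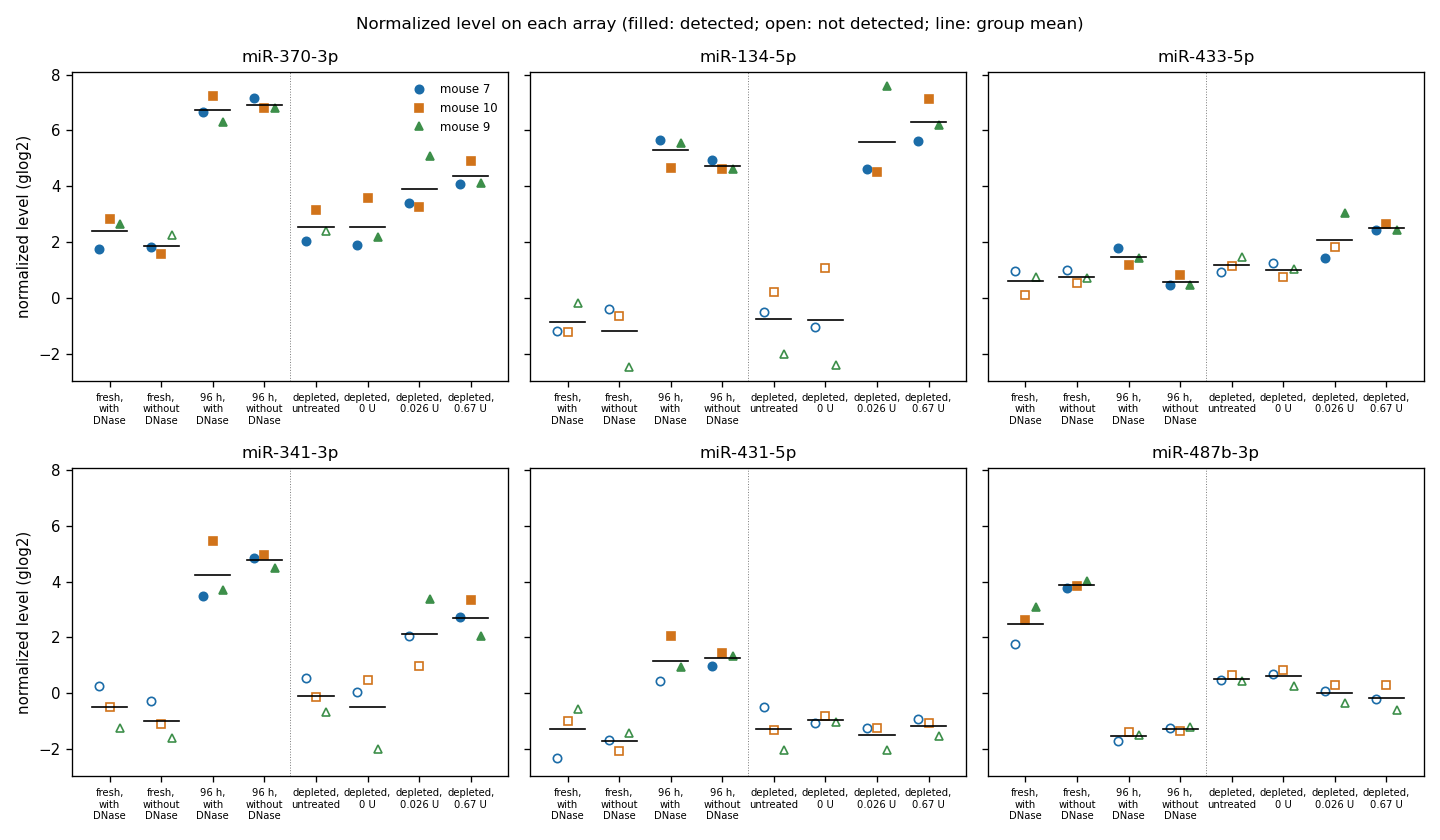
Normalized level (glog2) of the 6 tested members on each of the 24 arrays by group, filled where the miRNA was detected and open where it was not, with a line at each group mean. miR-487b-3p is highest in fresh RNA, and miR-134-5p lies above 4 on every stored and RNase-treated array and under 2 on all others.

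Fresh liver RNA held a low signal of 2 members. The signal of mmu-miR-370-3p, a Rian miRNA studied in hepatic lipid metabolism, was 1.85, 4.98 and 3.92 units with DNase and 1.84, 1.70 and 2.67 without, detected on 5 of 6 arrays. mmu-miR-487b-3p, from Mirg, gave 1.90, 4.16 and 5.51 units with DNase and 9.72, 11.0 and 11.1 without, also on 5 of 6 arrays. The lowest signal that the software flagged as detected on these arrays was 0.751 to 0.912 units. mmu-miR-370-3p, and miR-487b-3p with DNase, lay within a few units of it. Without DNase miR-487b-3p lay further above it.

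The question of the storage comparison was which signals appear or disappear as RNA decays in the tissue. With DNase, 4 members were called higher and 1 lower after 96 h: miR-134-5p, miR-341-3p, miR-370-3p and miR-431-5p rose, and miR-487b-3p fell. Of all 631 tested miRNAs 60.4% were called higher and 21.6% lower. Without DNase the same 4 members rose and the same 1 fell, with 60.5% of all tested miRNAs higher and 23% lower. The median change was 3.38 with DNase and 4.02 without for the 6 members, which the filter had selected, beside 2.47 and 2.16 over all 631. With no filter the split of the calls turned: 12 of the 88 members were called higher and 40 lower with DNase, and 11 and 41 without. Most of these, 41 of 52 and 42 of 52, were detected on no array. Over all 1881 miRNAs 34.9% were then called higher and 29.7% lower with DNase, and 32.8% and 27.6% without. With the filter but scaled to the 75th percentile of all miRNAs, 45% of the tested miRNAs were higher and 31.5% lower with DNase. The 2 comparisons share no array, but they share the 3 mice, their slides and a fit with a common spread. They are therefore not independent.

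mmu-miR-134-5p, a Mirg miRNA known from neuronal dendrites, rose with storage. Its signal was -0.353, -0.562 and 0.058 units on the fresh arrays with DNase and 141, 51.3 and 151 on the stored ones. Without DNase it was -0.288, -0.205 and -0.759 fresh and 73.3, 68.6 and 52.2 stored. The groups did not overlap, and the fresh arrays were all undetected. The fitted change, whose size rests on undetected fresh arrays, was 6.16 (SE 0.83) with DNase and 5.91 (SE 0.83) without (limma, adjusted p = 9.84e-07 and 1.88e-06), at least 19.4-fold and at least 12.6-fold higher.

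mmu-miR-341-3p, the 3p arm of a rodent Rian hairpin, behaved alike. It gave 0.247, -0.306 and -0.287 units fresh and 30.6, 90.6 and 41.7 stored with DNase. Without DNase it gave -0.234, -0.359 and -0.598 fresh and 68.2, 86.6 and 47.1 stored. No fresh array reached any stored array. It was at least 9.34-fold higher with DNase (change 4.72, SE 0.67, limma adjusted p = 1.74e-06) and at least 12.8-fold higher without (change 5.76, SE 0.67, adjusted p = 1.57e-07).

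mmu-miR-370-3p was the brightest member in stored liver. From the fresh values above it went to 284, 312 and 259 units with DNase and to 347, 317 and 239 without, with no overlap. The change was 4.33 (SE 0.48) with DNase and 5.06 (SE 0.48) without (limma, adjusted p = 7.95e-08 and 1.27e-08), and it was positive in 3 of 3 mice in both. Both of its probes moved this way, and the brighter one went from a mean of 1.66 units in fresh to 159 in stored RNA without DNase.

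The 2 tested Rtl1 antisense members, arms of a transcript whose miRNAs are known to target Rtl1, stayed dim. mmu-miR-431-5p was negative on every fresh array and gave 2.36, 7.16 and 4.98 units stored with DNase, where mouse 7 was not detected, and 3.44, 6.36 and 4.11 without. Groups did not overlap. The change was 2.43 (SE 0.50) and 2.98 (SE 0.50) (limma, adjusted p = 0.000142 and 1.47e-05), at least 1.10-fold and at least 1.13-fold higher. With DNase this was about the median change of all tested miRNAs, 2.47. mmu-miR-431-5p had passed the filter through stored arrays alone, so its calls are no evidence of a direction.

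mmu-miR-433-5p was detected on all 6 stored arrays and on no fresh one, at 8.34, 3.32 and 7.57 units with DNase and 2.05, 3.56 and 1.59 without. The fresh signals were 0.822, -0.004 and 0.657 with DNase and 0.683, 0.467 and 0.402 without. The raw signals were thus higher in every stored array. After normalization it was not called: the change was 0.87 (SE 0.34) with DNase, under the size of 1 (limma, adjusted p = 0.0232), and -0.16 (SE 0.34) without (adjusted p = 0.654), where the normalized groups overlapped. With spike-in scaling it was called higher with DNase (change 2.17, SE 0.46, adjusted p = 0.000173) and not without (0.86, SE 0.46, adjusted p = 0.0803), and with the other 5 scalings it was not called in either.

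mmu-miR-487b-3p went the other way. From 1.90 to 5.51 units in fresh RNA with DNase it went to -0.851, -0.793 and -0.414, and from 9.72 to 11.1 without DNase to -0.382, -0.462 and -0.579. It was detected on no stored array, and no stored array overlapped a fresh one. The filter had let it in through its fresh arrays alone, so its calls are no evidence of a direction. The level fell by 4.03 (SE 0.32) with DNase and fell by 5.16 (SE 0.32) without (limma, adjusted p = 1.53e-09 and 1.57e-10), at least 5.14-fold and at least 12.6-fold lower. In the same arrays the summed signals of the hepatocyte, the erythroid and the endothelial and stromal markers were also lower after storage. Those of the immune markers overlapped, those of the muscle markers rose from 0, and the neural markers stayed at 0. A link of these to miR-487b-3p was not tested.

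The calls of miR-134-5p, miR-341-3p, miR-370-3p and miR-487b-3p kept their direction under every scaling tried, and miR-431-5p did not pass with the percentile or quantile scalings. Normalization set the size: the median storage change of all tested miRNAs with DNase ranged from 0.14 to 3.05 over the 7 scalings, and with normexp background correction 0 members were called with DNase and 1, miR-370-3p, without. With the 75th percentile of commonly detected miRNAs, storage with DNase raised miR-134-5p by 3.91 and miR-341-3p by 2.83, and miR-487b-3p fell by 1.76. These changes are smaller than the lower bounds of fold given above, which are therefore no minimum over the scalings.

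**Figure D4:**
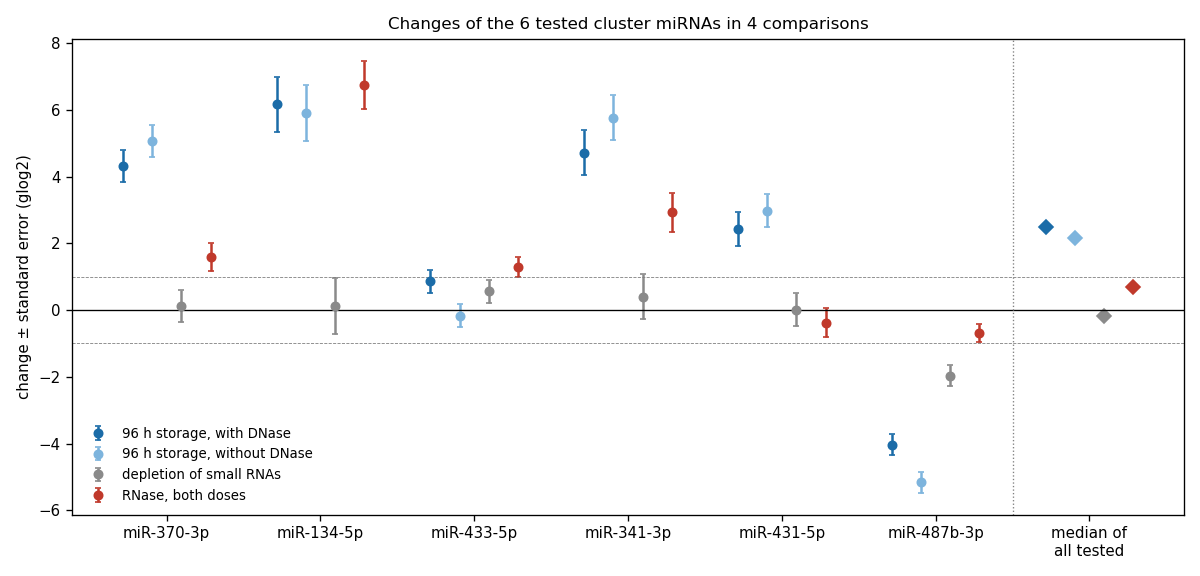
Change in normalized level (glog2, points, with standard errors as bars) of the 6 tested members in 4 comparisons, with the median change of all 631 tested miRNAs as diamonds at the right and dashed lines at -1 and 1. miR-134-5p was called higher with storage (6.16) and with RNase (6.74), each against arrays where it was undetected. miR-431-5p, which passed the filter through stored arrays alone, was called with storage (2.43) and not with RNase (-0.38).

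The probes of a miRNA did not always give the same picture. The 4 probes of miR-134-5p had mean signals of 27.0 to 31.6 units in stored RNA with DNase and passed 3 times their error on the same number of arrays, 12. For miR-433-5p 1 of 4 probes passed on 11 arrays and another on 6, and the remaining pair on none. For miR-431-5p 1 of 2 probes passed, on 5 arrays, with a mean of 5.02 units in stored RNA with DNase against -0.36 for the other. The levels of miR-433-5p and miR-431-5p therefore rest mostly on 1 probe each.

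**Figure D5:**
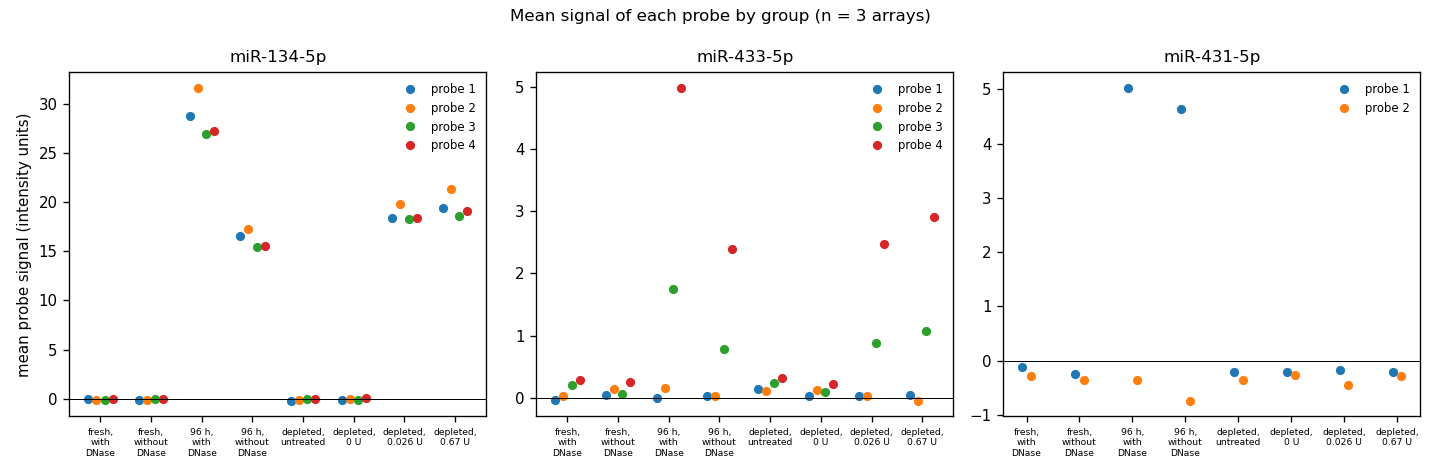
Mean signal (intensity units, n = 3 arrays) of each probe of miR-134-5p, miR-433-5p and miR-431-5p in the 8 groups, a colour for each probe. All 4 probes of miR-134-5p move together, while 1 of 4 probes carries most of the miR-433-5p signal and 1 of 2 the miR-431-5p signal.

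Another 7 members, named after their values were seen, were detected only in stored RNA and on too few arrays to be tested. mmu-miR-667-3p gave 7.16, 2.45 and 13.4 units with DNase, detected in mice 7 and 9, and 2.49, 1.69 and 1.87 without, detected in 1 mouse. mmu-miR-300-3p gave 8.35, 3.17 and 22.1 units with DNase, detected in mice 7 and 9, and 1.41 to 5.05 without, undetected. The related mmu-miR-381-3p was detected on no array, with signals of -1.65 to -0.18 units, although 16 bases are shared.

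mmu-miR-539-5p was detected in 2 mice without DNase, at 10.4 and 2.99 units, and miR-299b-3p, miR-540-3p and miR-758-5p in mouse 9 alone with DNase, at 2.95, 1.56 and 3.54 units. On the stored DNase-treated arrays miR-758-5p gave 4.83, -0.384 and 3.54 units and miR-134-5p, with which it shares 13 bases, 141, 51.3 and 151. Mouse 10 was the lowest of the 3 for both. The mouse 9 array, with 10 members, also had the highest total signal of all arrays, 362324 units, and 37.6% of all miRNAs detected. The part of the total signal in these detections was not tested.

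The seventh of these, mmu-miR-485-3p from Mirg, differed with the DNase step. After storage it gave 1.07, 1.89 and 1.72 units with DNase, all undetected, and 9.45, 12.8 and 10.3 without, all detected. These groups did not overlap, and its 4 probes were at 2.38 to 2.96 units without DNase and 0.11 to 0.65 with. It is on too few arrays for the main filter and, chosen after its values were seen, it is given as a description. An alternative filter, detection on all arrays of a group, let it in through the stored arrays without DNase, where it is high. A call made under that filter is therefore no evidence of a direction. In fresh RNA it was undetected, at -0.218 to 0.024 units with DNase and -0.148 to 0.548 without.

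The DNase step asked whether DNA in the sample adds signal. In fresh RNA 0 of the 6 members and 0% of all tested miRNAs were called. The rank test also called 0, but with 3 against 3 arrays it allows no p under 0.1 and could call none. Before adjustment 1 member had p under 0.05, which was miR-487b-3p, with 9.72, 11.0 and 11.1 units without DNase and 1.90, 4.16 and 5.51 with. The arrays did not overlap, and the change of 1.40 (SE 0.32) was positive in 3 of 3 mice and did not pass (limma, adjusted p = 0.183). It was called under 4 of the other scalings. The total signal of the fresh arrays was also higher without DNase in each mouse. In mice 7, 10 and 9 it was 131979, 163493 and 132195 units against 55237, 109374 and 92286 with DNase. The part of the total signal was not tested. In stored RNA 0 members were called against 10.8% of all tested miRNAs. The 1 member with p under 0.05 before adjustment was miR-433-5p, lower without DNase (change -0.89, SE 0.34, adjusted p = 0.109).

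The test of the difference between the storage changes of both DNase states called 0 of the 6 members, with 1.11% of all tested miRNAs called. Before adjustment 2 members had p under 0.05, miR-487b-3p (-1.13, SE 0.45, limma adjusted p = 0.249) and miR-433-5p (-1.03, SE 0.48, adjusted p = 0.353). The former was called lower under 3 other scalings.

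Depletion of small RNAs asked which signals belong to small RNAs. Depleted untreated RNA was set against fresh RNA with DNase. 1 member was called lower and 0 higher, beside 24.4% and 5.39% of all tested miRNAs. With the 75th percentile of commonly detected miRNAs the split of all tested miRNAs turned, to 13% lower and 39.9% higher. mmu-miR-487b-3p gave 0.305, 0.158 and 0.128 units in depleted RNA against 1.90, 4.16 and 5.51 in fresh, with no overlap and with no depleted array detected. It fell by 1.96 (SE 0.32, limma adjusted p = 4.22e-05), at least 2.18-fold lower, for a member selected through its fresh signal. With normexp this call was lost.

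The other member of fresh RNA, miR-370-3p, did not follow it. Its signal was 2.19, 5.79 and 2.90 units in depleted and 1.85, 4.98 and 3.92 in fresh RNA, with a change of 0.12 (SE 0.48, limma adjusted p = 0.923), and the groups overlapped. The other 4 tested members were undetected in both groups and have no fold. With the 75th percentile of commonly detected miRNAs, miR-370-3p and the undetected miR-433-5p were called higher in depleted RNA. The median change was 0.12 for the 6 members and -0.17 over all tested miRNAs. The summed hepatocyte markers still had 2489 to 3207 units in depleted RNA.

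A different member, also named after its values were seen, was detected only in untreated depleted RNA. mmu-miR-376b-3p, of a family known for A-to-I editing of its seed, gave 13.4, 2.97 and 3.20 units there, detected on 2 of 3 arrays. The undetected arrays gave -0.190, -0.441 and 0.420 units in fresh RNA with DNase and -0.466, -0.277 and -0.439 at 0 U. In fresh RNA without DNase, also undetected, it gave 0.514, 2.06 and 1.51 units, nearer to the lower depleted arrays. The undetected mmu-miR-376a-3p had its highest values on the same 3 arrays, at 2.65, 0.749 and 0.808 units, and negative values at 0 U. Neither was on enough arrays to be tested.

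The mock incubation at 0 U and the second isolation were compared with untreated depleted RNA. No tested member was called (0 of 6, also 0 with p under 0.05 before adjustment), beside 1.74% of all tested miRNAs. mmu-miR-370-3p gave 1.59, 6.14 and 1.70 units at 0 U, with a change of 0.03 (SE 0.48). The median change was -0.0034 for the members and 0.16 over all tested miRNAs.

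RNase digestion of depleted RNA asked whether fragments of longer RNAs give miRNA signals. With both doses averaged against 0 U, 4 members were called higher (miR-134-5p, miR-341-3p, miR-370-3p and miR-433-5p) and 0 lower (5 had p under 0.05 before adjustment), beside 44.7% and 0% of all tested miRNAs. The median change was 1.43 for the 6 members, which the filter had selected, and 0.69 over all 631. With the 75th percentile of commonly detected miRNAs, 24.9% of the tested miRNAs were higher and 29.2% lower. The 0 U arrays are the controls of both doses.

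mmu-miR-134-5p rose with RNase as well. It gave -0.694, 0.577 and -0.635 units at 0 U, then 15.5, 13.7 and 195 at 0.026 U and 37.3, 152 and 45.9 at 0.67 U. It was undetected on all 3 arrays at 0 U and detected on all 6 with RNase, without overlap. The change was 6.74 (SE 0.72, limma adjusted p = 2.28e-07), at least 23.9-fold higher. The brightest arrays were mouse 9 at 0.026 U, which its title gives as 0.67 U, and mouse 10 at 0.67 U. They also had the highest total signals of the RNase arrays, 177642 and 168514 units against 36325 to 83451 on the other 4. The part of the total signal was not tested.

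mmu-miR-341-3p gave -0.307, 0.168 and -0.581 units at 0 U, 2.01, 0.540 and 9.68 at 0.026 U and 4.20, 10.0 and 2.02 at 0.67 U. It was detected in 1 of 3 mice at the lower dose and in 3 of 3 at the higher. All RNase arrays lay above the 0 U arrays, and it was at least 2.09-fold higher (change 2.93, SE 0.58, limma adjusted p = 0.000247). Its stored levels, 30.6 to 90.6 units, were above the RNase levels, while those of miR-134-5p, 51.3 to 151, lay within its RNase range.

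mmu-miR-433-5p gave 0.630, 0.344 and 0.424 units at 0 U, 0.994, 1.51 and 7.39 at 0.026 U and 3.23, 5.92 and 2.81 at 0.67 U. It was detected on 5 of 6 RNase arrays, which all lay above the 0 U arrays. The change was 1.28 (SE 0.30, limma adjusted p = 0.00112), at least 1.91-fold higher. With percentile scaling on commonly detected miRNAs (0.94, limma adjusted p = 0.0112) and with normexp (0.12) it was under the size of 1 and not called.

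mmu-miR-370-3p was detected on every 0 U and RNase array. It gave 1.59, 6.14 and 1.70 units at 0 U, 6.22, 5.32 and 33.8 at 0.026 U and 12.2, 31.8 and 10.2 at 0.67 U. The groups overlapped through mouse 10, whose 0 U array was brighter than its 0.026 U array. The change was 1.58 (SE 0.42, limma adjusted p = 0.00331) and was positive in 3 of 3 mice. This call was lost without mouse 7 (change 1.46, adjusted p = 0.0574) and without mouse 9 (change 1.16, adjusted p = 0.105), and with percentile scaling on commonly detected miRNAs (0.58, adjusted p = 0.207) or quantile normalization (0.68, adjusted p = 0.202).

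Both remaining tested members stayed undetected with RNase. mmu-miR-431-5p was between -0.818 and -0.455 units on the 6 RNase arrays, with a change of -0.38 (SE 0.43, limma adjusted p = 0.55). It had passed the filter through stored arrays alone, so a call with storage and none with RNase is no evidence of a difference. The difference between these was not tested. mmu-miR-487b-3p was between -0.289 and 0.397 units (change -0.69, SE 0.28, adjusted p = 0.048, under the size of 1). With normexp 1 member, miR-134-5p, was called.

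Of 10 members listed for their part in the cluster's biology, miR-370-3p and miR-134-5p were detected and the other 8 on no array. These 8 are miR-127-3p, miR-136-5p and miR-434-3p of the Rtl1 antisense region and miR-376a-3p, miR-379-5p, miR-409-3p, miR-411-5p and miR-541-5p of Mirg. mmu-miR-127-3p, known for its complete match to Rtl1, gave 0.824, 0.580 and 0.474 units in fresh RNA with DNase and 0.034, -0.481 and -0.154 in stored.

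mmu-miR-379-5p, which starts the Mirg hairpin cluster known from neurons, was negative on all 24 arrays. mmu-miR-409-3p had the highest signal of any undetected member, 4.09 units in stored RNA with DNase, where its 3 arrays gave 4.09, 2.77 and 3.58 against 0.588, 0.332 and 0.493 fresh. mmu-miR-136-5p came next, at 3.67 units on 1 stored array. The median signal of the 74 members never detected lay between -0.17 and 0.086 units on the fresh arrays with DNase and between -0.77 and -0.51 on the stored ones. Their median was thus lower on every stored array than on any fresh one.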

How the data were processed

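The authors read the array scans with Agilent Feature Extraction 10.10.1.1, per the file headers. Its deposited output is background-subtracted intensity without between-array normalization, plus a flag that marks detected miRNAs. A second deposited file holds log2-scale values that the authors obtained by variance stabilizing normalization (vsn).

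The signal was the total gene signal where detected, otherwise the sum of the probe totals. The vsn method was rewritten in Python 3.11.15 (numpy 2.4.6, pandas 2.3.3, scipy 1.17.1) (least trimmed squares, 7 rounds, 90% kept in 5 slices). The SD of its difference from the deposited values was 0.0956, and it was tested on simulated data. Each deposited table column and scanner file matched 1 sample. limma 3.58.1 in R 4.3.3 fitted 8 group means to the 631 miRNAs found on 5 or more arrays, with trended empirical Bayes moderation and Benjamini-Hochberg adjustment within each of 8 comparisons (two-sided). In simulated storage data with DNase, 85% of 200 miRNAs changed by 2 were recovered, with 7 false calls. Figures were drawn with matplotlib 3.10.9.

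The members, lists and tests were chosen with earlier results of these data known. Named were all members detected on at least 5 arrays and 10 fixed ones. Further members were named after their values were seen. The mouse numbers pair the arrays, since arrays with 1 number come from the same animal. After group means were removed, deviations correlated at 0.0914 within and -0.0449 between mice. The number of arrays, 3 in each group, limits the precision. Planned normexp used the median spot signal. Genome positions are not given, because array design and annotation refer to different builds.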

Additional observations from a re-analysis of the deposited data

How the results depend on the processing

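The 15 single calls of tested members kept their direction under every alternative except miR-431-5p in storage without DNase, which was 0 with the 75th percentile of all miRNAs, both groups then being at the floor. All 15 were kept with the deposited values, spike-in scaling, no filter, detection on all arrays of a group and only the groups compared, and the replicate block for the mouse pairing changed no call (5, 5, 0, 0, 0, 1, 0 and 4 members for storage with DNase, storage without, their difference, DNase at 0 h, DNase at 96 h, depletion, mock incubation and RNase). The rank test of the methods called 0 members in each of the 7 comparisons of groups, since 3 against 3 arrays allow no p under 0.1. For RNase, with 6 against 3 arrays, the smallest p was 0.0238 and its adjusted value, 0.0573, did not reach the threshold. Normexp on spot signals called 0 members for storage with DNase, 1 without, 0 for depletion and 1 for RNase. With no filter 52 members were called for storage with DNase and 52 without, of which 40 and 41 were lower. Of the 52 in each, 41 and 42 were detected on no array. For DNase at 96 h 4 of the 88 members were called, for depletion 6, for mock incubation 4 and for RNase 7. Of all 1881 miRNAs, 5.16% were then higher and 2.02% lower for DNase at 96 h, and 5.32% and 9.99% for depletion. The shares were 0.106% and 1.91% for mock incubation and 18.3% and 1.7% for RNase. The 75th percentile of commonly detected miRNAs gave 3 for depletion and 2 for RNase. Both percentile scalings and spike-in scaling gave 1 for the difference between the storage changes, and these and quantile normalization gave 1 for DNase at 0 h. The filter on all arrays of a group added miR-485-3p, which passed it through the group where it is high. It gave 6 for storage without DNase, 1 for DNase at 96 h, which was miR-485-3p, and 0 for the difference between the storage changes. For depletion it gave 2, where the second, miR-485-3p, was undetected in both groups. Leaving out a mouse gave 3 to 4 members for RNase and the main counts elsewhere, and the titles' doses for mouse 9 gave 4. Detection by at least 1 probe gave the same 14 members. Where no cause is named, the cause was not tested. Signals within a few units of the background, as for miR-431-5p, miR-433-5p and miR-487b-3p, limit what can be read from their folds.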
